A study of Arabidopsis thaliana with 40 samples.

Results

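The genes examined were 10 *Arabidopsis* loci that pattern the root epidermis into hair and non-hair cells, chosen by their locus identifiers out of the 32678 *Arabidopsis* loci of the expression table. They were GL2 (AT1G79840), WER (AT5G14750), CPC (AT2G46410), TRY (AT5G53200), ETC1 (AT1G01380), GL3 (AT5G41315), EGL3 (AT1G63650), TTG1 (AT5G24520), SCM (AT1G11130) and RHD6 (AT1G66470). The series held 40 samples labelled as 1 QC cell each, of which 39 had a profile (the quiescent center, or QC, is the slowly cycling core of the root stem cell niche). All came from *Arabidopsis thaliana* WOX5:GFP plants, in which the promoter of a QC-expressed homeobox gene drives a fluorescent protein, in the Col-0 background at 5 days after stratification. Root cell walls were digested, GFP-positive cells were sorted by flow cytometry, and RNA was amplified by CEL-Seq, which tags each cell with a barcode and reads transcripts near their 3′ ends. There was a single group, no control samples, and no label for plant, pool or batch.

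In the root epidermis, a cell that lies over the cleft between cortical cells becomes a hair cell (trichoblast), and a cell over the face of a single cortical cell becomes a hairless cell (atrichoblast). SCM, a receptor-like kinase, relays position and lowers WER in future hair cells. In future hairless cells the MYB protein WER, the bHLH proteins GL3 and EGL3 and the WD40 protein TTG1 form a complex that turns on GL2 and also CPC, TRY and ETC1. These small R3 MYB proteins move to neighbouring cells and compete with WER for the bHLH partners, while GL2 keeps down RHD6 and the hair programme behind it. The QC lies inside the root tip and forms neither cell type.

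Transcripts were listed above 0 for 3 of the 10 patterning genes: CPC, the R3 MYB inhibitor that promotes hair fate, TTG1, the WD40 scaffold, and GL2, the homeobox regulator of hairless cells. In the deepest profile they stood at 57.3, 21.8 and 8.48 CPM (the count divided by the total count over *Arabidopsis* loci, times 1000000). WER, TRY, ETC1, GL3, EGL3, SCM and RHD6 were listed at 0 in all 39 profiles. Thus 30.0% of the patterning genes were above 0 in the deepest profile, against 51.3% of all *Arabidopsis* loci and 60.3% of loci annotated as protein coding. With a limit of 10 counts the patterning genes above it were the same 3, against 47.3% of all loci, and in the profile of median depth they were again above 0, against 46.1%. Of all loci, 15898 (48.7%) were at 0 in every profile.

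CPC was above 0 while its close relatives TRY and ETC1 were listed at 0, so a coding stretch that these R3 MYB inhibitors share is shown for CPC, TRY and ETC1, and for WER, the R2R3 MYB they compete with. It codes for the part of the MYB repeat that contacts bHLH proteins. Capitals mark bases that agree in CPC, TRY and ETC1 and that the printed gene also carries, and all 4 sequences run 5′ to 3′ on the coding strand.
CPC (chromosome 2, minus strand, coding bases 130 to 189): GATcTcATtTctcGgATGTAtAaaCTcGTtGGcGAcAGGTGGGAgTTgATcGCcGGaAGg
TRY (chromosome 5, plus strand, coding bases 115 to 174): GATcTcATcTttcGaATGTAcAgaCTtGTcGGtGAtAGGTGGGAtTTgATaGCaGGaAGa
ETC1 (chromosome 1, plus strand, coding bases 118 to 177): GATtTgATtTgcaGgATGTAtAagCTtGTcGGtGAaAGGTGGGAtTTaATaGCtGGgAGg
WER (chromosome 5, minus strand, coding bases 238 to 297): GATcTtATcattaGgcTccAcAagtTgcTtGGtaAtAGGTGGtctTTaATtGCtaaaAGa
The sequences are those of RefSeq on the TAIR10.1 assembly. CPC, TRY and ETC1 had the same base at 40 of the 60 positions, and 16 of the 20 positions that differed were at the last base of a codon. WER matched CPC at 35 positions, against 47 for TRY and 45 for ETC1. Over whole transcripts the longest run of identical bases was 21 bases between CPC and TRY and 10 bases between CPC and ETC1. The read length of the CEL-Seq libraries is not stated in the sources used here.

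The profiles were not separate measurements. Total counts over *Arabidopsis* loci were 57655 in the shallowest profile (QC cell 4) and 7431708 in the deepest (QC cell 22). Along this order 0 values dropped at any of the 38 steps. Each profile therefore contained the shallower ones, and the 39 profiles were treated as 1 sample, with no test. Values are given for the deepest profile with exact 95% Poisson intervals, which cover counting error only, and the course over depth is a description. Few cells with much of an RNA and many cells with little of it cannot be told apart. The smallest count above 0 was 2. The study's methods describe the removal of genes with short read coverage for its hand-picked cells. Whether the same was done to the CEL-Seq libraries is not stated, so a gene at 0 is said only to be listed at 0. The gibberellin synthesis gene GA3 was listed at 0 in a profile where 145.7 counts would have been in proportion to its deepest level. Whether counts were likewise missing for the patterning genes at 0 cannot be told from these profiles. As a check of the label, WOX5, the gene that marks the QC, had 10.6 CPM in the deepest profile and was above 0 in 30 profiles. SCR, a gene of the QC and endodermis, had 28.5 CPM, and the stele gene WOL had 33.5 CPM, so both stood above WOX5. Of the 7 QC and stem cell niche genes 4 were above 0, beside 51.3% of all loci, with PLT1, PLT2 and BBM listed at 0. The GFP row of the reporter was also listed at 0 in every profile.

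**Figure D1:**
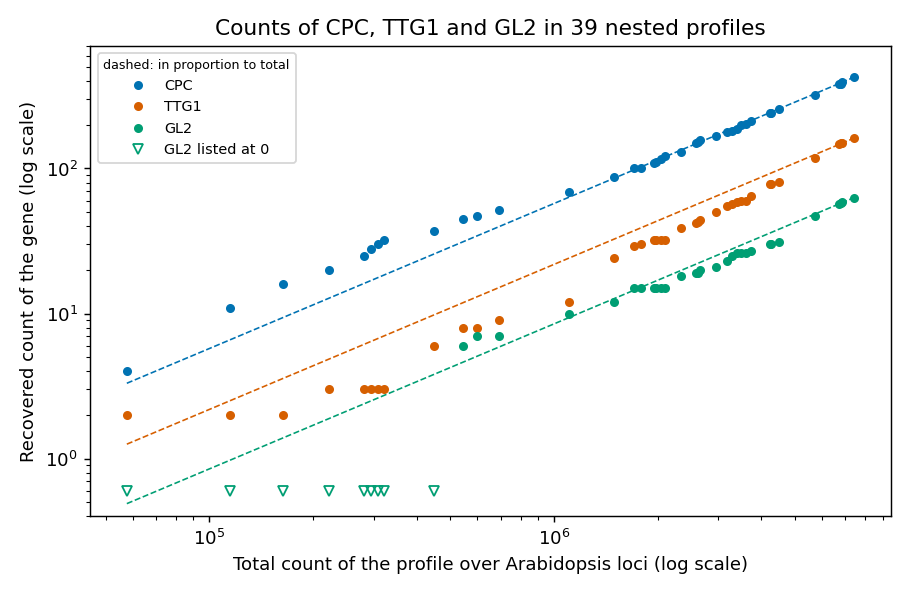
Recovered counts of CPC, TTG1 and GL2 (y axis, log scale) against the total count of each of the 39 nested profiles (x axis, log scale), with 1 point per profile above 0 and, for each gene, a dashed line for counts in proportion to the total from the deepest profile. CPC reached 426, TTG1 162 and GL2 63 counts, and open triangles at the lower edge mark the 9 shallowest profiles, where GL2 was listed at 0.

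CPC, the founding member of the mobile R3 MYB inhibitors, had the most counts of the patterning genes. Its count was 4 in the shallowest profile, 121 in the profile of median depth and 426 in the deepest, and it was above 0 in all 39 profiles. At 57.3 CPM (95% interval 52.0 to 63.0) it lay above 90.7% of all loci and above 81.9% of the loci that were above 0. Counts were added to it in 36 of the 38 steps, the largest step adding 63. The CPM of CPC lay between 55.4 and 99.5, with a median of 57.4, and was highest in the profile of QC cell 31. Its annotated transcript on chromosome 2 has 3 exons, 285 coding bases and no overlapping annotated gene.

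The other R3 MYB inhibitors were listed at 0. TRY, on chromosome 5, and ETC1, on chromosome 1, act with CPC in holding back the hairless fate, and neither had a count in any profile. ETC2, ETC3, TCL1 and TCL2, further members of this family, were also listed at 0. CPC was thus the single R3 MYB above 0 of 7, beside 51.3% of all loci. The family groups counted here and below were drawn after the values were seen, so their tallies are only descriptions. ETC1 overlaps its neighbour AT1G01390 by 2 bases on the opposite strand, and that gene was at 0 too.

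TTG1, the WD40 protein that holds MYB and bHLH proteins together, was the second of the patterning genes by level. It had 2 counts in the shallowest profile, 32 in the profile of median depth and 162 in the deepest, and like CPC it was above 0 in all 39 profiles. Its level was 21.8 CPM (18.6 to 25.4), above 81.2% of all loci and 63.5% of loci above 0. The CPM of TTG1 lay between 9.32 and 34.7 over the profiles, with a median of 16.7. Being above 0 in every profile was shared by 15.3% of all *Arabidopsis* loci and by 2 of the 10 patterning genes. The closest relatives of TTG1, LWD1 and LWD2, which act in the circadian clock, stood at 24.8 and 9.96 CPM. Thus 3 of 3 WD40 genes of this group were above 0, beside 51.3% of all loci. The annotated end of LWD2 overlaps its neighbour AT3G26650 by 13 bases on the same strand. The longest identical run that TTG1 shared over the whole transcript was 17 bases with LWD1 and 18 bases with LWD2.

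The bHLH partners of TTG1 were listed at 0, as were the MYB genes WER and GL1, while the related MYB23 was above 0. GL3, on chromosome 5, and EGL3, on chromosome 1, are overlapping in function in the root, and neither had a count. Their relatives MYC1, which also acts in epidermal patterning, and TT8, a regulator of seed coat pigment, were at 0. This gave 0 of 4 bHLH partners above 0, beside 51.3% of all loci. WER, the MYB of the hairless position, was listed at 0, as was GL1, its counterpart in leaf trichomes. MYB23, which is turned on downstream of WER in hairless cells and can act in its place, had 29 counts in the deepest profile, or 3.90 CPM (2.61 to 5.60). MYB23 was first above 0 with 5 counts at a total of 1105492. The longest identical run shared by the GL3 and EGL3 transcripts was 38 bases, and when only their last 500 bases were compared it was 23 bases.

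SCM, the receptor-like kinase at the head of the pathway, was listed at 0. Of its relatives in positional signalling, QKY, a membrane protein that binds SCM, had 3.36 CPM (2.18 to 4.97). JKD, a zinc finger protein that acts from the cortex on epidermal patterning, had 13.7 CPM (11.2 to 16.7). GEM, which affects the chromatin state of GL2 and CPC, had 16.8 CPM (14.0 to 20.0) and was the single one of the 20 relatives above 0 in the shallowest profile. In the deepest profile 8 of the 20 relatives were above 0 (40.0%, against 51.3% of all loci). The lowest was TTG2, a WRKY factor of trichome growth and seed coat, at 2.02 CPM. ZFP5, a zinc finger gene of trichomes and root hairs, was listed at 0.

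GL2, the HD-ZIP class IV factor downstream of the complex, was the lowest of the 3 genes above 0. It was listed at 0 in the 9 shallowest profiles and was above 0 in the other 30. Its count was 15 in the profile of median depth and 63 in the deepest, which is 8.48 CPM (6.51 to 10.8). The first profile with GL2 was that of QC cell 19, where it had 6 counts at a total of 543543. A count in proportion to its level in the deepest profile would have been 3.82 in the profile before. Where GL2 was above 0 its CPM lay between 6.88 and 11.7, with a median of 7.64. It lay above 70.2% of all loci and 42.0% of loci above 0. Of the 6 HD-ZIP class IV genes looked at, GL2 and HDG11 were above 0, while ANL2, HDG12, ATML1 and PDF2 were listed at 0. Of all loci 51.3% were above 0. HDG11, known from trichome branching, had 3.09 CPM (1.96 to 4.64). It was first above 0 with 22 counts, although a count in proportion to its deepest level would have been 17.7 in the profile before, where it was listed at 0.

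The annotated 3′ end of GL2 on chromosome 1 overlaps other annotated genes. Whether counting used the strand is not stated in the sources used here, so reads of GL2 cannot be told apart from reads of RNA from either strand over its 3′ end, and the share of its 63 counts that came from GL2 transcripts was not tested. CPC and TTG1 overlap no annotated gene.

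RHD6, the bHLH factor that GL2 keeps down and that starts hair outgrowth, was listed at 0. So were RSL1 to RSL5, the relatives that act with and after it, leaving 0 of 6 genes of this group above 0. LRL1, LRL2 and LRL3, a separate group of bHLH genes for hair growth, were above 0 at 29.9, 9.42 and 2.83 CPM. Of 7 genes used as trichoblast markers, which are part of the longer hair lists, RHD2, COW1 and EXPA7 were above 0 and RHD6, RSL1, RSL4 and EXPA18 were listed at 0. Of 4 atrichoblast markers GL2 and MYB23 were above 0 and WER and ANL2 were listed at 0. All of these shares stand beside 51.3% of all loci.

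The order of the patterning genes was CPC, TTG1 and GL2, and the 3 intervals did not overlap in the deepest profile. Division by coding length (285, 1026 and 2331 bases) gave the same order, at 201 CPM per kb for CPC, 21.2 for TTG1 and 3.64 for GL2. It could not have changed the order, since genes with more CPM had shorter coding sequences. CEL-Seq counts transcript ends, so the undivided CPM is the level used elsewhere. The ratio of CPC to TTG1 counts was 2.63 in the deepest profile, between 2.0 in that of QC cell 4 and 10.7 in that of QC cell 31, with a median of 3.45. CPC and TTG1 were at or above the median CPM of loci above 0, which was 12.1, and GL2 was below it. Together the 10 genes held 651 counts, or 87.6 CPM (81.0 to 94.6).

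**Figure D2:**
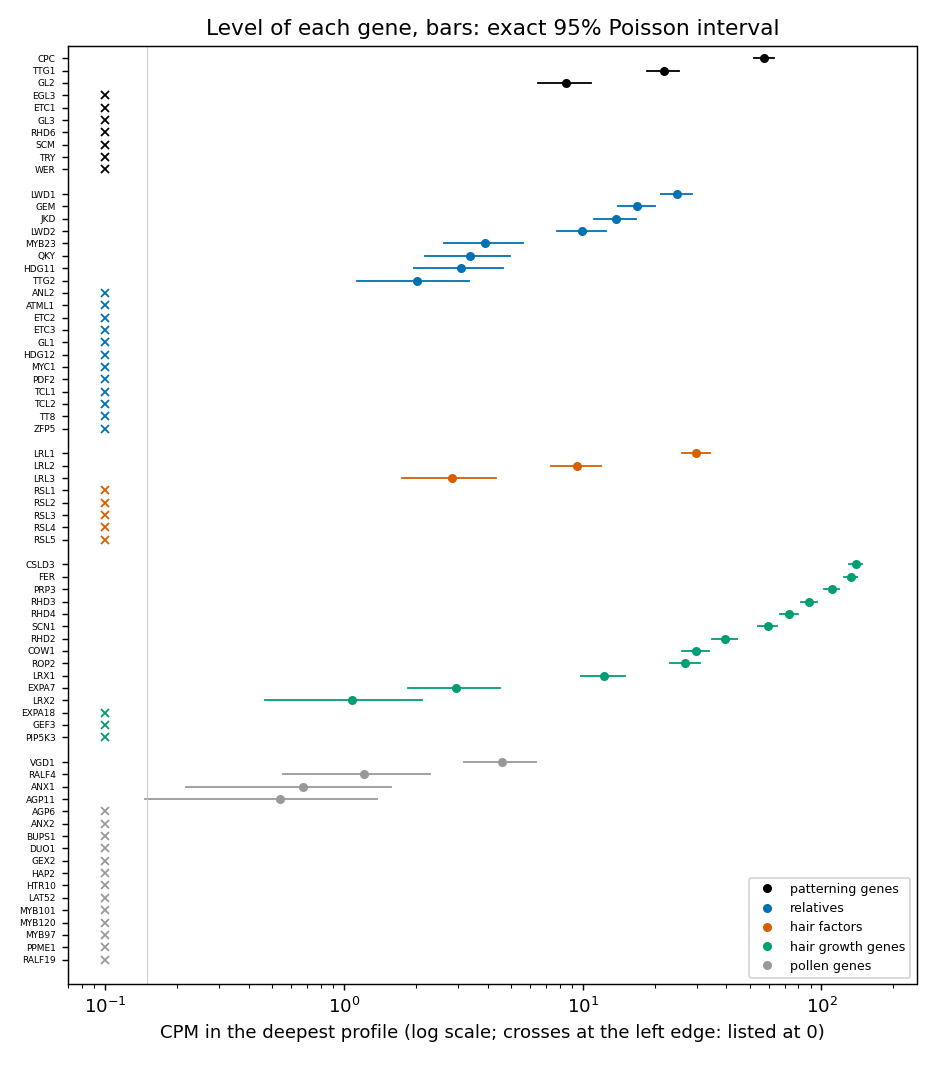
CPM in the deepest profile (x axis, log scale) of the patterning genes, their relatives, hair transcription factors, hair growth genes and pollen genes, with exact 95% Poisson intervals as bars and crosses at the left edge for genes listed at 0. CPC stands highest of the patterning genes at 57.3 CPM, and 7 of the 10 are crosses.

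Because a deeper profile contains the shallower ones, the counts added later were also taken alone, in blocks of profiles chosen after the data were seen. CPC had 82.8 CPM (60.4 to 111) in the 10 shallowest profiles, 48.9 (38.6 to 61.2) in the counts added over the next 10, 54.0 (42.9 to 67.1) over the 10 after that and 58.4 (51.0 to 66.6) in the last. All counts added after the first block gave CPC 55.3 CPM (49.9 to 61.2), and this interval overlapped that of the first block only between 60.4 and 61.2. Overlap of intervals does not show that a level was steady. TTG1 had 14.7 CPM (6.35 to 29.0), 15.5 (9.90 to 23.0), 18.7 (12.4 to 27.0) and 26.6 (21.7 to 32.3) in the same blocks. The intervals of the first block and of all later counts, at 22.4 CPM (19.0 to 26.2), overlapped for TTG1. GL2 had 11.0 CPM (4.05 to 24.0) in the first block and 8.28 (6.27 to 10.7) in all later counts, again overlapping. In the profile of QC cell 1, which was 30th by depth, TTG1 stood at 16.7 CPM (12.7 to 21.5). That interval lay below the interval of the counts added after it, 26.6 CPM (21.7 to 32.3). At the same split the intervals of CPC and of GL2 overlapped. The share of all loci with intervals apart at this split was not counted, and the difference for TTG1 was not tested. The first block and all later counts were also compared for 4698 loci above 0 in every profile with at least 100 counts. The first block lay above the later counts, with intervals apart, in 2.38% and below in 0.298%. Neither CPC nor TTG1 was among them. These loci had to be above 0 in the shallowest profile, which is part of the first block. The filter thus favours loci that are high in that block, and these shares are no background for CPC or TTG1.

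**Figure D3:**
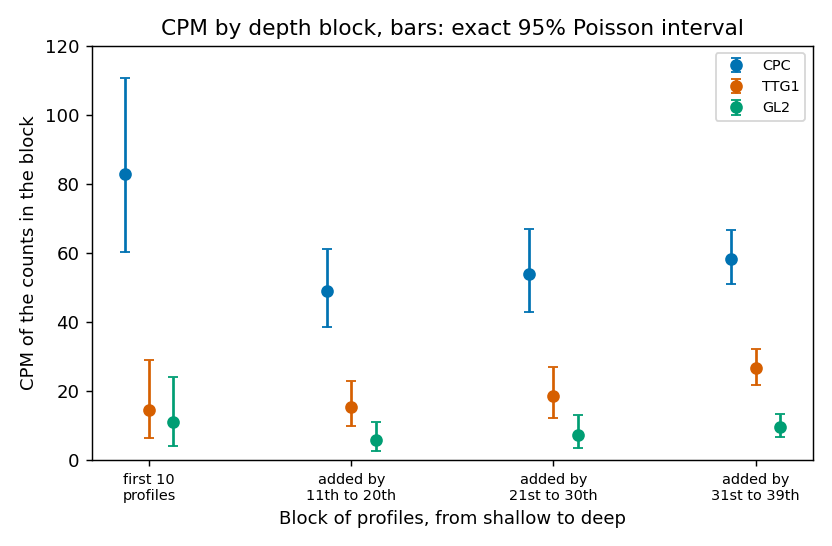
CPM of CPC, TTG1 and GL2 (y axis) in 4 blocks of counts from shallow to deep (x axis), with exact 95% Poisson intervals as bars. CPC had 82.8 CPM in the first block and 48.9 to 58.4 in the later ones, and TTG1 had 14.7 to 26.6.

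Of 10 patterning genes 3 were above 0, against 12 of 15 genes that carry out hair growth. The share was 51.3% of all loci and 60.3% of loci annotated as protein coding. The median over the patterning genes was 0 and over the hair growth genes 29.7 CPM, and this difference was not tested. The lists were chosen with earlier results of these data known, so the contrast is only a description. The leading ones were CSLD3, a cellulose synthase-like protein of the hair tip, at 139 CPM, FER, a receptor kinase of cell growth, at 133 CPM, PRP3, a wall protein, at 110 CPM, and RHD3, a protein that shapes the endoplasmic reticulum, at 88.7 CPM. FER and RHD3 act in many cell types besides hairs. RHD2, the NADPH oxidase of the hair tip, had 39.3 CPM, COW1, a lipid transfer protein of the hair tip, 29.7 CPM and EXPA7, a hair-specific expansin, 2.96 CPM. EXPA18, GEF3 and PIP5K3 were listed at 0.

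Marker lists from sorted tissues were counted in the same way. Of 30 atrichoblast markers of the study's marker sheet, a list that holds GL2 itself, 14 were above 0, led by KAN at 44.9 CPM, YSL7 at 24.1 and AT5G19750 at 19.5. Of 20 trichoblast markers 10 were above 0, led by AT2G46380 at 36.5 CPM, HAM2 at 16.8 and FT1 at 12.8. Of 24 QC markers 10 were above 0, led by RIP5 at 208 CPM and GA3 at 55.0. GA3, a gibberellin synthesis gene, was first above 0 with 157 counts, although a count in proportion to its deepest level would have been 145.7 in the profile before, where it was listed at 0. These shares of 46.7%, 50.0% and 41.7% stand beside 51.3% of all loci. With a limit of 10 counts the shares were 43.3%, 45.0% and 20.8%, beside 47.3% of all loci. Pollen genes, which root cells should lack, were above 0 in 4 of 17 cases, the highest being VGD1 at 4.57 CPM. GL2, at 8.48 CPM, was above that value, though the share of its counts from GL2 transcripts was not tested. MYB23, HDG11, QKY and TTG2 were below it. So were the QC gene AGL42 at 2.96 CPM and the stele genes SHR at 4.17, TMO5 at 3.36 and VND7 at 1.21 CPM. Of the hair genes, EXPA7 at 2.96, LRL3 at 2.83 and LRX2 at 1.08 CPM were below it too.

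**Figure D4:**
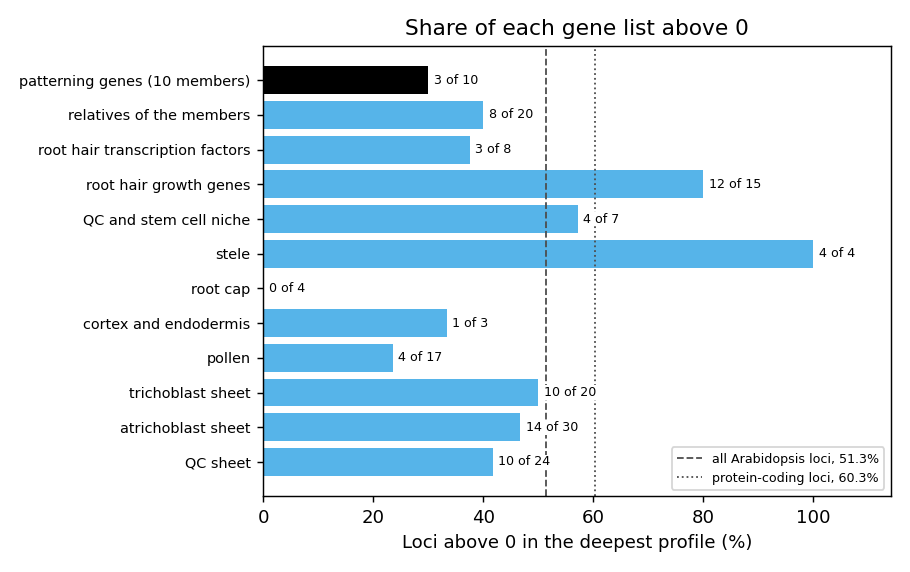
Share of loci above 0 in the deepest profile (x axis, percent) for the patterning genes and each other gene list (y axis), with the shares of all loci and of protein-coding loci as vertical lines. The patterning genes were at 30.0%, hair growth genes at 80.0% and all loci at 51.3%. The lists were chosen with earlier results of these data known.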

How the data were processed

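CEL-Seq libraries of sorted WOX5:GFP cells were deposited by the authors as 1 table of log2 values. The study's methods describe depth-normalized, log2-transformed read numbers for its hand-picked cells, and the values themselves show that 1 was added before the log2. Per the submitters' processing notes Bowtie2 and TAIR10 were used. The counter, the filters and strand use for these libraries are not given in the sources used here. Columns were matched to samples by barcode (each column name lacks 1 base of the barcode in the label), which left 1 sample without a profile. Counts were recovered as whole multiples of 1 step per column, within 0.000844 of a step, and scaled to CPM over *Arabidopsis* loci. ERCC spike-ins and reporters were left out. Detection meant a count above 0. Totals ranged between 57655 and 7431708, and exact 95% Poisson intervals cover counting error only, as no molecular identifiers are stated. With 1 group of nested profiles no test was made. Gene names, gene models and sequences came from RefSeq on TAIR10.1, matching 31912 of 32678 loci. No coordinates are given because the builds differ. The annotation the authors counted on may differ from it. A further result on the counts of GL2 is not reported here.

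The genes and lists were chosen with earlier results of these data known. The marker sheet heads no tissue, and its blocks were assigned by the order of their scores. All 10 genes were named, and up to 4 genes of highest count above 0 per other list, all genes of lists of 8 or fewer, and label checks. Further relatives, hair growth genes and the family grouping were named after their values were seen. Alternatives were a limit of 10 counts, the profile of median depth, CPM over all rows or without the 4 loci of highest count, and CPM per kb of coding sequence. Counts added after the 10 shallowest profiles were examined after seeing the data. Count recovery was tested on simulated data. Python 3.11.15, numpy 2.4.6, pandas 2.3.3, scipy 1.17.1 and matplotlib 3.10.9 were used.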

Additional observations from a re-analysis of the deposited data

Results flagged for a closer look

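ERCC spike-in rows, which belong to no comparison of the report, made up 4.97% of all counts in the deepest profile, with 70 of 91 rows above 0. The series has no control samples to set this against.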

How the results depend on the processing

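Of 30 values recomputed under another setting 24 moved by less than their counting error or 1.5 times, and so did 4 chosen after the data were seen. The summed level of the patterning genes, 87.6 CPM, was 102 CPM without the 4 loci of highest count and 80.1 CPM in the profile of median depth. CPC was 66.6 CPM without those loci, since the total was smaller, and TTG1 was 15.3 CPM at median depth. With a limit of 10 counts the share detected was 5.88% of pollen genes and 20.8% of QC markers of the marker sheet, beside 47.3% of all loci. CPC, TTG1 and GL2 were detected with a limit of 10 counts and at median depth. No paired analysis was possible because there was a single group. Depth limits GL2 most, at 63 counts. A listing at 0 gives no upper limit, since filters on low genes are not stated for these libraries, and the nested profiles give no error between cells.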

Other observations

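Markers of other root tissues were also examined, where 51.3% of all loci were above 0 in the deepest profile. All 4 stele genes were above 0, led by WOL, a cytokinin receptor, at 33.5 CPM, with SHR at 4.17, TMO5 at 3.36 and VND7 at 1.21 CPM. MYB36, a regulator of the endodermal barrier, had 130 CPM (122 to 138), while CASP1, which builds that barrier, and CO2, a cortex marker, were listed at 0. SMB, FEZ, BRN1 and BRN2, which act in the root cap, were all listed at 0. Among niche genes PLT3 had 177 CPM, SCR 28.5 CPM and AGL42 2.96 CPM.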
